A study of Homo sapiens with 54 samples.

Results

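The genes described here are 10 genes that are widely used to recognise cells of the amnion and the trophoblast: GATA3, GATA2, TFAP2A, TFAP2C, CDX2, HAND1, ISL1, VTCN1, IGFBP3 and CGA. They were chosen by symbol, and the array probes were matched to them through the RefSeq accession of each probe. All 10 were found, each by 1 probe, among 19720 genes with a symbol. The question was whether the removal of fibroblast growth factor (FGF) from human pluripotent stem cells in E8 Medium raises such an extraembryonic programme, and how the levels compare with those in differentiated cells.

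The amnion is the membrane that encloses the fetus, and the trophoblast is the outer lineage that forms most of the placenta. In culture, human pluripotent stem cells can take on either fate when bone morphogenetic protein (BMP) signalling is on and FGF or activin signalling is low. GATA2, GATA3, TFAP2A and TFAP2C are transcription factors that act early in both fates, and they are also present in non-neural surface ectoderm, so that none of the 10 genes marks 1 lineage alone.

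RNA of 27 cultures was measured on 54 one-colour Agilent arrays, 2 arrays for each culture. H1, a line of human embryonic stem cells (ESCs), was grown without feeder cells in E8 Medium, here Essential 6 Medium with 2 ng/mL TGF-beta 1, and each of 3 experiments had a pre-culture with 100 ng/mL bFGF and then 3 arms of 4 days with 100 ng/mL bFGF, with 100 ng/mL FGFC (a stable chimera of FGF1 and FGF2) or with no FGF. TGF-beta 1 was therefore present in all 12 of these cultures. The pre-cultures were at passages 48, 49 and 50 and the arms at passages 49, 59 and 51, so that in experiment 2 the pre-culture and the arms are further apart than in the others; for experiment 3 the sample records give more than 1 passage, and the one in the title was used. A further 5 systems had a pre-culture, or for H1 in E8 Medium the cultures above, and 1 culture each with bFGF and with FGFC: H1 in E8 Medium for 30 days (100 ng/mL), H1 in medium conditioned by mouse embryonic fibroblasts (MEF-CM) for 41 days (5 ng/mL), KhES-1 ESCs on feeder cells for 30 days (5 ng/mL), 201B7 induced pluripotent stem cells (iPSCs) on feeder cells for 50 days (10 ng/mL) and 253G1 iPSCs in E8 Medium for 36 days (100 ng/mL). The last culture was differentiated H1, grown as embryoid bodies in suspension for 8 days and attached for 11 days in serum replacement medium without added FGF. The labels do not say whether its starting cells came from bFGF or FGFC, and it has no replicate. The authors describe the starting cells as H1 kept in E8 Medium, which by their definition holds bFGF.

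Levels are given as normalized signal, the log2 of the array's processed signal minus the 75th percentile of that array, as the mean of the 2 arrays of a culture. A negative value is a level below that percentile. Values are compared only within a gene, because probes differ in brightness. A probe was counted as measured on an array when the scanner software marked at least a share of 0.5 of its spots as well above background, which was so for 56.0% to 79.2% of all probes per array. POU5F1, NANOG, SOX2 and LIN28A, markers of pluripotent cells, were well above background on 52 of 52 arrays of the undifferentiated lines and of the cultures without FGF. They were also above background on both arrays of differentiated H1, where POU5F1 stood at 2.73 against 6.70 to 8.85 in the other cultures.

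Promoter sequence is shown for the 4 genes that rose clearly without FGF and have an entry in the RefSeq promoter table, and for CGA, whose difference in differentiated H1 was the largest of the 10. Of the 10 genes, 9 had 1 or more promoters in that table (GRCh38.p14; TFAP2C is named only), each running from 250 bases before the start of transcription to 50 after it; where a gene has several starts, the first in the direction of transcription is printed. GATA3 lies at chr10:8045083-8045382 on the + strand, TFAP2A at chr6:10419610-10419909 on the - strand, VTCN1 at chr1:117210878-117211177 on the - strand, IGFBP3 at chr7:45921223-45921522 on the - strand and CGA at chr6:87095057-87095356 on the - strand. Capitals mark matches, on either strand, to 4 motifs. The TFAP2 motif was searched as GCCNNNGGC and the cAMP response element (CRE) as TGACGTCA. The motif of GATA factors was searched with the letters AGATAA, and the TATA box was searched with the letters TATAAA. The TFAP2 motif and the CRE read the same on both strands and were counted once, and overlapping matches were counted singly.
GATA3: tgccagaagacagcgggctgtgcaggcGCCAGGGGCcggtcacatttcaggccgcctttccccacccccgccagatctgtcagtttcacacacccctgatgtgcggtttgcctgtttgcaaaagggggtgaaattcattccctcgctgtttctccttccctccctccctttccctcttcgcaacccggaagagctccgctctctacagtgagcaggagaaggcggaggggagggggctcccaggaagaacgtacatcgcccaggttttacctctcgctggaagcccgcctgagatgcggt
TFAP2A: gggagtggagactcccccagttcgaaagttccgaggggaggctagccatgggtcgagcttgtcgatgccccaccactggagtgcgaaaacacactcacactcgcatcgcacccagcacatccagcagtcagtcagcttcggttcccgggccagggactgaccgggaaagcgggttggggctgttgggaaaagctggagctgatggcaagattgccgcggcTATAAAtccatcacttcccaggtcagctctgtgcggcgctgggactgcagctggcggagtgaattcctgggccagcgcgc
VTCN1: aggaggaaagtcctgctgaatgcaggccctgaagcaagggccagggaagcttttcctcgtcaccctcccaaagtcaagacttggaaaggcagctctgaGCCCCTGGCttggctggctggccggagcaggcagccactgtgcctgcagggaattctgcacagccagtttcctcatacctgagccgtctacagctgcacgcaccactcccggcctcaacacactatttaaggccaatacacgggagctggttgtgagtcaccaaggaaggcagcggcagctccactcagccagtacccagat
IGFBP3: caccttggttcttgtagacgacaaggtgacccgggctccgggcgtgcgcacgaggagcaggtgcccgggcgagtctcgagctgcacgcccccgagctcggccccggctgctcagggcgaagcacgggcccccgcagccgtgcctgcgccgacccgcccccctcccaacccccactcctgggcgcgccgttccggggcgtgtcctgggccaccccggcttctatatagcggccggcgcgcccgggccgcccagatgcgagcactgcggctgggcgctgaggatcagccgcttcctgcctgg
CGA: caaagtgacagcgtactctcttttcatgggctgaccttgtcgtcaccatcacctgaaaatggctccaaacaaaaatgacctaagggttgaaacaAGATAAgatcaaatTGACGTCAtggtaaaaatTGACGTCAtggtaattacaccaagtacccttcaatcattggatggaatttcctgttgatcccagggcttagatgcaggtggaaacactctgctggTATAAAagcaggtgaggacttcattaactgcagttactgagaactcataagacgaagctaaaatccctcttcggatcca

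A match describes the letters only. The TFAP2 motif was present in the promoters printed for GATA3, with its first base at -223 from the start, and for VTCN1, at -152, and in 5 of the first promoters of the 9 genes; among all 35116 promoters of the table, 23.2% held it. TFAP2A held a TATA box at -30 and CGA held one at -29, as did 11.5% of all promoters. CGA also held a GATA motif (10.3% of all promoters) and 2 CREs (1.85% of all promoters), which begin at -142 and -124. In the window printed for IGFBP3 none of these letter strings occurred.

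Without FGF for 4 days, 6 of the 10 genes rose against bFGF and none fell. They were GATA3, TFAP2A, TFAP2C, VTCN1, IGFBP3 and ISL1, while GATA2, CDX2, HAND1 and CGA did not pass the test. The test was limma over all 42405 probes and the 12 H1 cultures in E8 Medium, with Benjamini-Hochberg adjustment and a threshold of 0.05, and 5.54% of all probes rose by it. The median difference of the 10 genes was 1.76 on the log2 scale, against 0.01 over all probes. The 3 experiments are 3 cultures of 1 line, so that p-values measure the spread between these cultures, and in RNA of whole cultures a change in the number of cells that use a gene and a change in RNA per cell cannot be told apart.

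**Figure D1:**
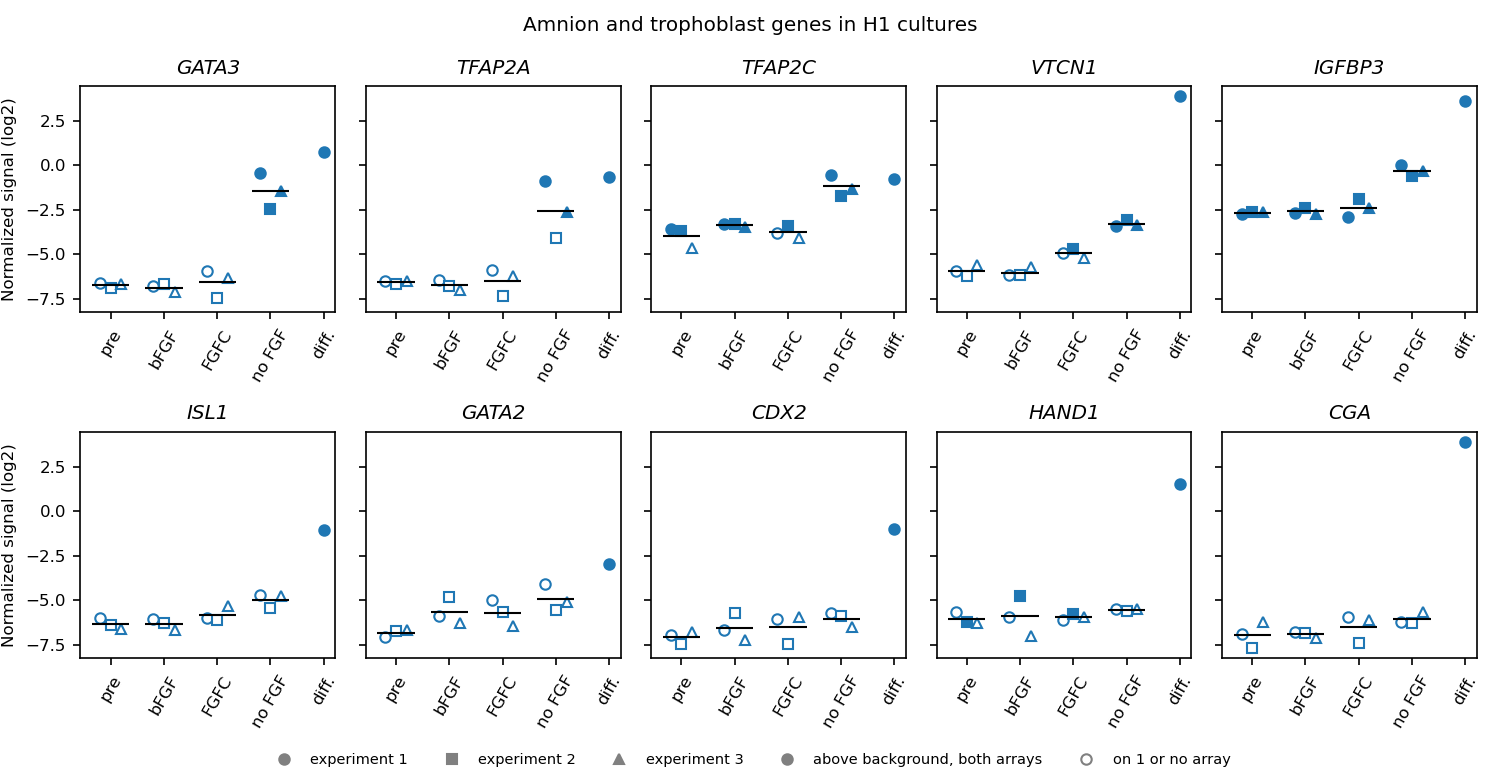
Normalized signal (log2) of the 10 genes in H1 pre-cultures, in the 4-day arms and in differentiated H1 (diff.). Each point is 1 culture (the mean of 2 arrays), its shape gives the experiment, filled points were well above background on both arrays, and lines are means of 3 cultures; GATA3 without FGF lies between -2.48 and -0.43, above all the H1 cultures with FGF that are shown.

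GATA3, a zinc finger factor that acts early in trophoblast and amnion, changed most. Its normalized signal was -6.80, -6.68 and -7.14 with bFGF in experiments 1, 2 and 3, and -0.43, -2.48 and -1.47 without FGF. The lowest culture without FGF stood well above every H1 culture of 4 days with bFGF or FGFC, and the probe was above background on 6 of 6 arrays without FGF and on 0 of 6 with bFGF. Because the level with bFGF is only a bound, the rise is given as at least 20.1-fold. The mean without FGF, -1.46, is set against the higher, on each bFGF array, of the probe's own signal and the lowest signal marked as well above background. That lowest signal is taken over all probes of an array and is not the detection limit of the probe itself. For example, TFAP2C with FGFC in experiment 1 was not marked at -3.82 and -3.81, where the arrays' lowest marked signals were -5.03 and -4.84. Every "at least" here is therefore a convention, and weaker where the brighter group was not above background on every array. The measured difference was 5.41 (SE 0.48, adjusted p = 3.24e-05, limma), and within experiments it was 6.37, 4.20 and 5.67. Without experiment 2 it was 6.02.

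TFAP2A, which encodes the AP-2 alpha transcription factor, rose with a wider spread. Its signal was -6.45, -6.76 and -6.99 with bFGF and -0.91, -4.10 and -2.65 without FGF. The groups did not overlap, but the culture of experiment 2 was above background on only 1 of its 2 arrays, and it lay 3.19 below the culture of experiment 1. The rise was at least 9.42-fold (measured means -2.55 without FGF and -6.73 with bFGF, difference 4.18, SE 0.64, adjusted p = 0.00131, limma). Without experiment 3 the difference was 4.10 and the adjusted p was 0.0824; it was 3.5 without experiment 1, 4.94 without experiment 2 and 4.77 with the slide as a block.

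TFAP2C, which encodes AP-2 gamma, a factor of the trophoblast that is also found in naive pluripotent and germ cells, was measured with FGF as well. The signal was -3.30, -3.29 and -3.49 with bFGF and -0.53, -1.73 and -1.33 without FGF, and every culture without FGF was higher than every 4-day culture with FGF. The difference of 2.17 (SE 0.35) is a 4.49-fold rise, with an adjusted p of 0.00192 in limma.

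VTCN1, a member of the B7 family of immune regulators that is abundant in trophoblast cultures, had the narrowest range without FGF of the genes that rose. It stood at -6.17, -6.19 and -5.75 with bFGF and at -3.39, -3.10 and -3.36 without FGF. It was above background on 0 of 6 arrays with bFGF and on 6 of 6 without FGF, and rose at least 5.39-fold (measured means -3.28 and -6.04, difference 2.75, SE 0.21, adjusted p = 1.20e-05, limma). IGFBP3, a secreted protein that binds insulin-like growth factors, was measured on every array of both groups, at -2.66, -2.40 and -2.71 with bFGF and at 0.0075, -0.63 and -0.35 without FGF. The groups lay apart, by 2.27 in the mean (SE 0.25, 4.81-fold, adjusted p = 0.000162, limma).

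ISL1, a LIM homeodomain factor of the amnion and of heart and motor neuron precursors, passed the test at a level near background. Its signal was -6.07, -6.26 and -6.68 with bFGF and -4.70, -5.47 and -4.78 without FGF. The groups did not overlap, although the probe was above background on only 1 of 6 arrays without FGF and on 0 of 6 with bFGF. Because most arrays without FGF were not above background either, no bound on the fold is given. The measured difference was 1.36 (means -4.98 without FGF and -6.34 with bFGF, SE 0.29, adjusted p = 0.0101, limma). This call did not hold under normexp background correction (adjusted p = 0.0862), with a floor on low signals (0.138) or on the second arrays alone (0.221), nor without experiment 1 (0.0728) or experiment 3 (0.162), all by limma.

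The other 4 genes were close to background in all 4-day arms. CGA, the alpha subunit of chorionic gonadotropin and of the pituitary glycoprotein hormones, was -6.80, -6.86 and -7.10 with bFGF and -6.25, -6.32 and -5.69 without FGF, and no array of either group was well above background. Its difference was 0.84 (SE 0.42, adjusted p = 0.248, limma), and it passed the threshold (0.0335) only when the fit held the 2 arms alone. GATA2, the paralogue of GATA3, differed by 0.73 (SE 0.46, adjusted p = 0.362), CDX2, a homeobox factor of the early trophoblast and the hindgut, by 0.50 (SE 0.46, adjusted p = 0.539), and HAND1, a factor of trophoblast giant cells, amnion and heart, by 0.34 (SE 0.43, adjusted p = 0.666), all in limma. In each of these 3, the value without FGF was higher in experiments 1 and 3 and lower in experiment 2, and 1 of 6 arrays without FGF was above background, so that the arrays could not show a small change in them.

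The sizes given for dim probes depend on the background correction. With normexp, which here adds an offset of 50 to every signal, the differences between no FGF and bFGF were 2.27 for GATA3, 1.54 for TFAP2A, 1.46 for TFAP2C, 0.93 for VTCN1, 1.75 for IGFBP3 and 0.35 for ISL1, so that the folds above, the lower bounds included, hold for the processed signal only. The first 5 of these genes passed the test in that setting too.

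**Figure D2:**
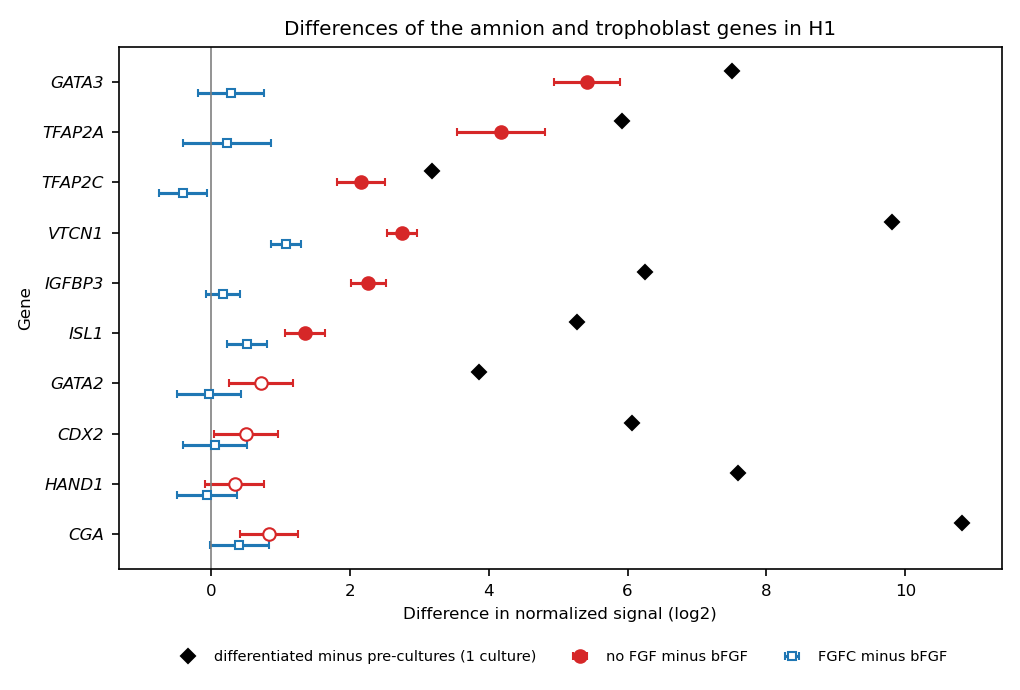
Difference in normalized signal (log2) of each gene for no FGF minus bFGF (circles, with SE; filled where limma's adjusted p was under 0.05), FGFC minus bFGF (squares, with SE) and differentiated H1 minus the mean of the 3 pre-cultures (diamonds, 1 culture). Without FGF, 6 circles are filled, from 1.36 for ISL1 to 5.41 for GATA3, no square passed the test, and all diamonds lie at 3.18 or more.

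Against FGFC the same arm gave 5 genes that rose, with 4.72% of all probes rising; since both comparisons use the same cultures without FGF, they are not independent. GATA3 differed by 5.12 (SE 0.48) and was at least 17.4-fold higher, with FGFC values of -5.96, -7.46 and -6.33. TFAP2A was at least 8.15-fold higher (FGFC -5.91, -7.36 and -6.24), and TFAP2C and IGFBP3 differed by 2.57 and 2.09. VTCN1 differed by 1.67 (SE 0.21), and the adjusted p of these 5 genes in limma ran from 5.28e-05 for GATA3 to 0.00218 for TFAP2A. ISL1 differed by 0.83 (SE 0.29) with an adjusted p of 0.0998.

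Against the pre-cultures 7 genes rose without FGF (5.30% of all probes), the 6 named above and GATA2. GATA2 was -7.07, -6.76 and -6.69 in the pre-cultures and -4.12, -5.56 and -5.13 without FGF. It was above background on 0 of 6 and 1 of 6 arrays, so that no bound on the fold is given. The measured difference was 1.90 (means -6.84 in the pre-cultures and -4.94 without FGF, SE 0.46, adjusted p = 0.0215, limma). The 3 bFGF cultures of the same 4 days stood at -5.89, -4.85 and -6.27, and 1 of them, of experiment 2, lay inside the range without FGF. The GATA2 call did not hold when any 1 of the 3 experiments was left out (adjusted p = 0.171, 0.0635 and 0.104 without experiments 1, 2 and 3, limma), with a floor on low signals (0.0895) or on the first arrays alone (0.20). Of the other 6, the differences from the pre-cultures were 5.28 for GATA3, 4.02 for TFAP2A, 2.78 for TFAP2C, 2.65 for VTCN1, 2.35 for IGFBP3 and 1.36 for ISL1.

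Considered without a model, 5 of the 10 genes (GATA3, TFAP2A, TFAP2C, VTCN1 and IGFBP3) were higher in all 3 cultures without FGF than in all 6 cultures of 4 days with bFGF or FGFC, as were 10.2% of all probes. In experiments 1 and 3 the 3 arms lay on 1 slide each; in experiment 2 the bFGF arm lay on another slide than the other arms. The within-slide differences between no FGF and bFGF, in experiments 1 and 3, were 6.37 and 5.67 for GATA3, 5.54 and 4.34 for TFAP2A, 2.77 and 2.17 for TFAP2C, 2.78 and 2.39 for VTCN1 and 2.67 and 2.37 for IGFBP3. With the slide as a block in limma, the same number of genes, 6, passed.

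When FGFC replaced bFGF for 4 days, none of the 10 genes passed the test, and 0% of all probes did; at an unadjusted p under 0.05 there were 1262 probes and 1 of the 10 genes, VTCN1. The differences of the 10 genes ran from -0.40 (TFAP2C) to 1.08 (VTCN1). VTCN1 was -4.95, -4.71 and -5.21 with FGFC, all above the bFGF cultures, as was the case for 4.12% of all probes, and was above background on 4 of 6 arrays with FGFC and on 0 of 6 with bFGF. Its difference was 1.08 (SE 0.21, adjusted p = 0.769, limma), at least 1.69-fold, and within experiments it was 1.22, 1.48 and 0.53. In each experiment VTCN1 was therefore lowest with bFGF, intermediate with FGFC and highest without FGF, but of these steps the one between bFGF and FGFC did not pass the test. With FGFC in experiments 1 and 3 only 1 of 2 arrays was above background, and the arrays of experiment 1 stood at -4.02 and -5.88.

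In long-term culture, none of the 10 genes differed between FGFC and bFGF over the 5 systems (0% of all probes; limma with the system as a block), and 2 of them had an unadjusted p under 0.05, as had 2536 of all probes. GATA3 was lower with FGFC in 5 of 5 systems, by -0.65 in H1 in E8 Medium, -0.35 in MEF-CM, -1.07 for KhES-1, -1.10 for 201B7 iPSCs and -0.05 for 253G1 iPSCs, with a mean of -0.64 (SE 0.18, adjusted p = 0.702, limma). Only in MEF-CM was GATA3 above background on both arrays of both arms. In H1 in E8 Medium and in 253G1 it was above background on no array of either arm, so that these differences are of background values. With FGFC it was above background on 0 of 2 arrays in KhES-1 and on 1 of 2 in 201B7. CDX2 averaged -0.71 (SE 0.26, adjusted p = 0.702, limma) and was not above background on both arrays of any of the long-term cultures. VTCN1 moved differently among the systems. In H1 in E8 Medium after 30 days it was -5.97 with bFGF, on 0 of 2 arrays above background, and -3.53 with FGFC, on 2 of 2, a difference of 2.44; in the other systems the difference was -0.98, -0.83, 0.32 and 0.41. Each system has 1 culture per arm, so the difference in H1 has no replicate at 30 days.

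**Figure D3:**
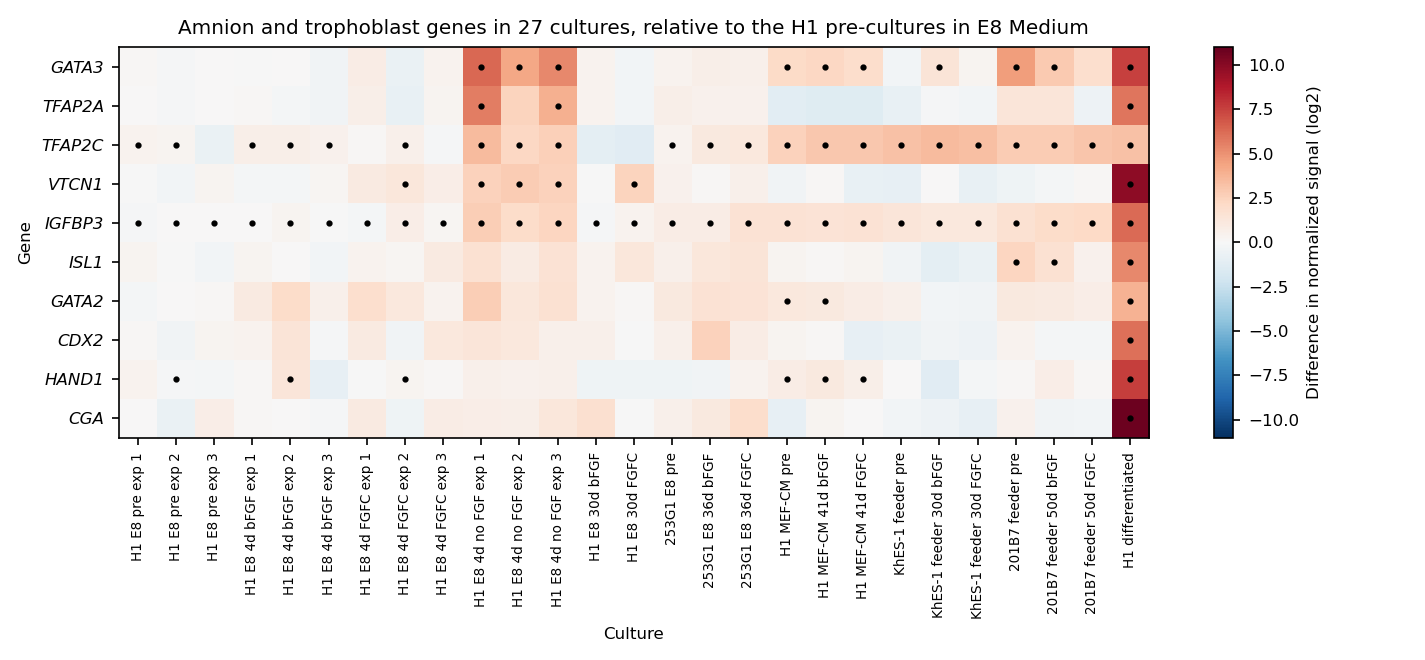
Normalized signal (log2) of the 10 genes in all 27 cultures, shown as the difference from the mean of the 3 H1 pre-cultures in E8 Medium (red higher, blue lower); a dot marks a gene well above background on both arrays of a culture. All 10 genes have a dot in differentiated H1, and the cultures without FGF have dots for GATA3, TFAP2C, VTCN1 and IGFBP3 in all 3 experiments.

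Across the 23 cultures with FGF the genes fell into different patterns. TFAP2C was highest, at -1.42 to -0.46, in the 9 cultures on feeder cells or in MEF-CM (18 of 18 arrays above background), and reached -5.19 to -2.79 in the 14 cultures in E8 Medium with FGF, with no overlap. The values on feeder cells and in MEF-CM thus overlapped those of the H1 cultures without FGF, -1.73 to -0.53. H1 was grown both ways, and in this line TFAP2C was -1.42 to -1.02 in the 3 MEF-CM cultures and -5.19 to -3.29 in the 11 cultures in E8 Medium with FGF. IGFBP3 was -1.17 to -1.07 in MEF-CM and -2.91 to -1.91 in those 11 cultures, and GATA3 was -4.80 to -4.45, above background on 6 of 6 arrays, against -7.46 to -5.96. These 3 of the 10 genes, and 7.19% of all probes, were higher in all 3 MEF-CM cultures than in all 11 in E8 Medium; medium, FGF dose and passage differ together here and cannot be told apart, and no test was made.

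GATA3 was also detected in 201B7 iPSCs on feeder cells, at -2.18 in the pre-culture, -3.82 with bFGF and -4.92 with FGFC, where 5 of 6 arrays were above background. The 201B7 pre-culture thus lay inside the range of the H1 cultures without FGF. Its 2 arrays had the lowest 75th percentiles of the series, 182 and 234, against 512 to 816 for H1 without FGF. The effect of scaling such dim arrays on the rank of this culture, for GATA3 and for ISL1, was not tested. ISL1 was measured on both arrays of the 201B7 pre-culture (-3.97) and of the bFGF culture (-4.62), both above all 3 H1 cultures without FGF, and in the FGFC culture it was -5.85 and on no array above background. TFAP2A stood at -5.27 in both of the former cultures, and no culture with FGF had it above background on both arrays. In KhES-1, GATA3 was above background on both arrays only with bFGF (-5.36), and in 253G1 on no array (-6.39 to -6.11). IGFBP3 was -0.96 to -0.48 in the 3 cultures of 201B7. The highest of them, with FGFC, lay inside the range of the H1 cultures without FGF, -0.63 to 0.0075.

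In differentiated H1, all 10 genes were above background on both arrays and 2-fold or more above the mean of the 3 pre-cultures, as were 14.3% of all probes. With 1 culture there is no test, and the 2 arrays differ only by technical error. CGA and VTCN1 had the largest differences. CGA stood at 3.87 against -6.93, -7.70 and -6.22 in the pre-cultures, at least 1003-fold higher (measured means 3.87 and -6.95), and VTCN1 at 3.87 against -5.96, -6.22 and -5.62, at least 840-fold higher (3.87 and -5.93). With normexp the differences of the 10 genes were smaller, 1.10 (GATA2) to 7.15 (CGA).

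HAND1 was 1.53 in the differentiated culture and -6.28 to -5.69 in the pre-cultures, and IGFBP3 was 3.59 and -2.76 to -2.62. Neither gene came near these levels in any other culture. GATA3 (0.76), TFAP2A (-0.65) and TFAP2C (-0.79) were 7.51, 5.92 and 3.18 above the pre-culture means. CDX2 (-1.02) was at least 33.8-fold, ISL1 (-1.07) at least 27.8-fold and GATA2 (-2.98) at least 8.66-fold above pre-cultures in which no array measured them (measured means -7.08, -6.34 and -6.84).

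Set beside each other, the cultures without FGF and the differentiated culture shared a high level of some of the 10 genes and not of others. TFAP2C in differentiated H1 lay within the range of the 3 cultures without FGF, and TFAP2A and GATA3 lay 0.26 and 1.19 above the highest of them. IGFBP3 lay 3.58 and VTCN1 6.98 above the highest culture without FGF, although both genes had risen without FGF. For the genes that did not pass the test against bFGF, differentiated H1 exceeded the highest culture without FGF by 1.14 (GATA2), 4.69 (CDX2), 7.04 (HAND1) and 9.56 (CGA). CGA, on no array above background without FGF, was at least 570-fold higher in differentiated H1 than without FGF. The cultures differ in time, medium and format as well, and no test of these differences was made.

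Lists of other genes give the setting, beginning with amnion and trophoblast. Of 12 other amnion genes, 4 rose without FGF against bFGF and 1 fell (median difference 0.81). NR2F2, a nuclear receptor of many mesenchymal and epithelial tissues, rose at least 25.1-fold, TBX3, a T-box factor, at least 7.47-fold (difference 3.40; its second probe differed by 1.02), and MEIS1, a homeobox cofactor, by 2.23 (SE 0.48). HEY1, a target of Notch and BMP signalling named after its values were seen, rose by 1.30 (SE 0.28). GABRP, a GABA receptor subunit abundant in amnion, fell by 3.71 (SE 0.35, adjusted p = 4.77e-05, limma), while in differentiated H1 it was 4.71 above the pre-cultures. All 12 were 2-fold or more higher in differentiated H1. ITGB6, TFAP2B, POSTN and HAND2, named after their values were seen, were above background on no array without FGF.

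Of 15 other trophoblast genes measured, 2 rose, 1 fell and 12 did not pass (median difference 0.20). PAPPA, a protease that cleaves IGF binding proteins, rose by 1.20 (SE 0.33), SDC1, a heparan sulfate proteoglycan of the syncytiotrophoblast, rose by 0.80 (SE 0.21), and HLA-G, a marker of extravillous trophoblast, fell by 0.68 (SE 0.16). Without FGF, 6 of the 15 were above background on no array; these were ELF5, TP63, GCM1, ERVW-1, ERVFRD-1 and CYP19A1, named after their values were seen, which include transcription factors and fusion proteins of the placental trophoblast. In differentiated H1, 8 of the 15 were 2-fold or more higher and 2 lower; HSD3B1, an enzyme of placental progesterone synthesis, was at least 15.8-fold above the pre-cultures, where no array measured it, while ERVW-1 and ERVFRD-1 were on no array above background.

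**Figure D4:**
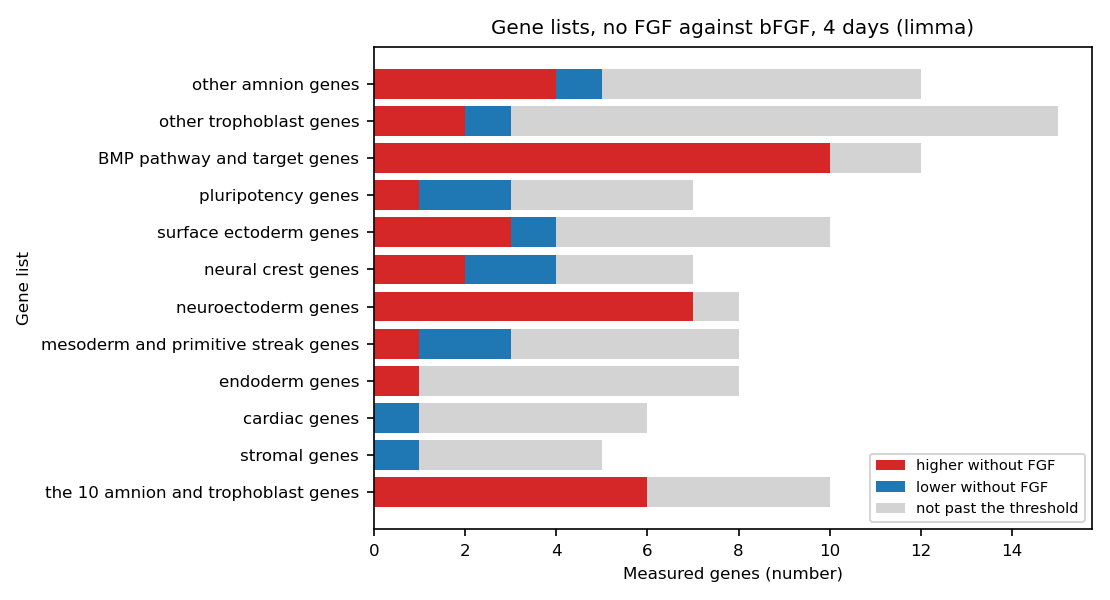
Number of measured genes of each list that were higher (red) or lower (blue) without FGF than with bFGF after 4 days by limma at an adjusted p under 0.05, or did not pass (grey). The BMP list (10 of 12) and the neuroectoderm list (7 of 8) had the most genes higher, beside 6 of the 10 amnion and trophoblast genes.

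BMP ligands and targets rose in greater number: 10 of 12, with a median difference of 2.50 and none lower. BMP4, a ligand used to induce amnion and trophoblast in culture, rose by 3.37 (SE 0.32, adjusted p = 5.74e-05, limma), BMP2 by 3.03 (SE 0.38), ID4, an inhibitor of bHLH factors and a target of the pathway, by 4.87 (SE 0.28), and MSX2, a homeobox target, at least 7.53-fold. In differentiated H1, 11 of the 12 were 2-fold or more higher.

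Neuroectoderm genes rose as well, 7 of 8, with a median difference of 3.57. LHX2, a factor of the forebrain and eye field, rose by 7.52 (SE 0.82), PAX6 at least 37.7-fold (its other 2 probes differed by 0.20 and 7.79), SIX3 by 4.41 (SE 0.34) and ZIC1 at least 7.28-fold, while SOX1, named after its values were seen, was on no array above background. Of 10 surface ectoderm genes, 3 rose and 1 fell: DLX5 and DLX6, paired homeobox genes of the non-neural ectoderm and its border, rose at least 387-fold and at least 176-fold, DLX3 rose at least 9.74-fold, and KRT18 fell by 0.74 (SE 0.19).

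Of 7 neural crest genes, 4 passed the test. PAX3 (at least 3.59-fold) and SOX9 (by 1.87) rose, FOXD3 fell by 3.31, and ETS1, above background on 0 of 6 arrays without FGF, was at least 1.67-fold lower (measured means -5.91 and -4.45). In the mesoderm and primitive streak list of 8, TBXT passed with a difference of 0.83 but was above background on 0 of 6 arrays in either arm, KDR fell by 4.17 and PDGFRB fell by 1.01. CXCR4 alone rose in the endoderm list of 8, by 3.03, TNNT2 fell by 2.65 among 6 cardiac genes, and THY1 fell by 1.70 among 5 stromal genes. Of 7 pluripotency genes measured, POU5F1 and NANOG fell by 1.08 and 1.71, and SOX2, which the neuroectoderm list also holds, rose by 1.32.

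The summed level of each list was taken on the linear scale, in units of the 75th percentile, and is led by the list's brightest probes. The sum of the 10 genes was 0.319 to 0.437 with bFGF and 1.39 to 3.22 without FGF. It was higher without FGF, with no overlap, for the BMP list (24.4 to 27.4 with bFGF, 61.3 to 122 without), the neuroectoderm list (30.0 to 35.7 and 84.3 to 112) and the endoderm list (0.893 to 1.26 and 1.54 to 2.69); in the neuroectoderm list SOX2 and NES were the brightest with bFGF, at mean normalized signals of 4.49 and 3.28. It was lower without FGF, with no overlap, for the other trophoblast genes (53.9 to 60.5 with bFGF, 41.2 to 46.0 without), the neural crest list (1.73 to 2.09 and 0.542 to 0.838), the mesoderm list (2.96 to 3.69 and 0.741 to 0.927), the stromal list (42.3 to 49.2 and 13.3 to 19.8) and the pluripotency list (362 to 452 and 257 to 361). The sums overlapped for the other amnion genes (0.980 to 1.24 and 0.832 to 1.92), the surface ectoderm list (137 to 158 and 129 to 158) and the cardiac list (84.3 to 121 and 83.5 to 99.2). Single probes carried much of several sums, so that a sum is not a measure of a cell type. With bFGF and without FGF, mean signals were 5.40 and 3.70 for THY1 (stromal) and 0.72 and -2.59 for FOXD3 (neural crest). The same means were 5.36 and 4.68 for HLA-G (other trophoblast) and -2.82 and 0.21 for CXCR4 (endoderm). The part of these other cell types in the rise of the 10 genes was not tested.

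Differentiated H1 held genes of many other cell types. Of 10 surface ectoderm genes, 8 were 2-fold or more above the pre-cultures and 1 was lower (median difference 5.05). By the same rule 6 of 8 neuroectoderm genes were higher and 0 lower, and 5 of 7 neural crest genes were higher and 1 lower. Of the stromal list 4 of 5 were 2-fold or more higher and 1 lower. Among them, LUM and COL3A1, genes of fibroblast matrix, were at least 1016-fold and at least 576-fold higher than in pre-cultures where no array measured them, and DCN, measured on 1 of 6 pre-culture arrays, was 11.37 above. Of the endoderm list 7 of 8 were higher, with TTR at least 2432-fold, GATA6 at least 110-fold and SOX17 at least 57.9-fold above unmeasured pre-cultures. Of 8 mesoderm genes 5 were higher and 2 lower, with EOMES at least 25.0-fold higher. Of 6 cardiac genes 3 were higher: HAND2, at least 46.5-fold, MYH6, by 3.09, and TBX5, which was above background on 1 of 2 arrays and on 0 of 6 of the pre-cultures. PRDM14, a pluripotency gene, was at -6.66 and on no array above background. The levels of the 10 genes in this culture were measured in the presence of these others, and their part was not tested.

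The 3 cultures without FGF were not alike in the genes that rose. In 5 of the 6 genes of amnion and trophoblast that passed the test, the culture of experiment 1 was highest and that of experiment 2 lowest, with a range of 3.19 for TFAP2A, 2.05 for GATA3, 1.20 for TFAP2C, 0.77 for ISL1 and 0.64 for IGFBP3. VTCN1 had a range of only 0.29. Of the 10 BMP genes that rose, 7 were likewise highest in experiment 1, among them ID1, named after its values were seen, at 5.70, 4.33 and 4.58 in experiments 1, 2 and 3. The 3 surface ectoderm genes that rose, DLX3, DLX5 and DLX6, were all highest in experiment 1 and lowest in experiment 2.

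Of the 7 neuroectoderm genes that rose, experiment 1 was lowest in 5 and highest in 2, SOX2 (5.96, 5.75 and 5.72 in experiments 1, 2 and 3) and OTX2 (2.06, 1.75 and 1.71), the latter named after its values were seen. The 3 with the widest spread were lowest in experiment 1. LHX2 was 0.99, 4.94 and 4.59, PAX6 was -2.09, 0.84 and 0.80, and ZIC1 was -4.94, -1.85 and -1.99 in experiments 1, 2 and 3. Of the 4 other amnion genes that rose, experiment 1 was lowest in 3 and highest in 1. The 3 were NR2F2 (-2.84, -0.02 and -0.55), HEY1 (-2.79, -1.92 and -1.94) and MEIS1 (-4.31, -2.63 and -2.55). TBX3 was highest there, at -2.28, -3.05 and -2.64. PAX3, of the neural crest list, was lowest in experiment 1, at -5.20, -2.46 and -3.61. With 3 cultures and genes chosen for their spread this is a description, and no correlation was computed.

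**Figure D5:**
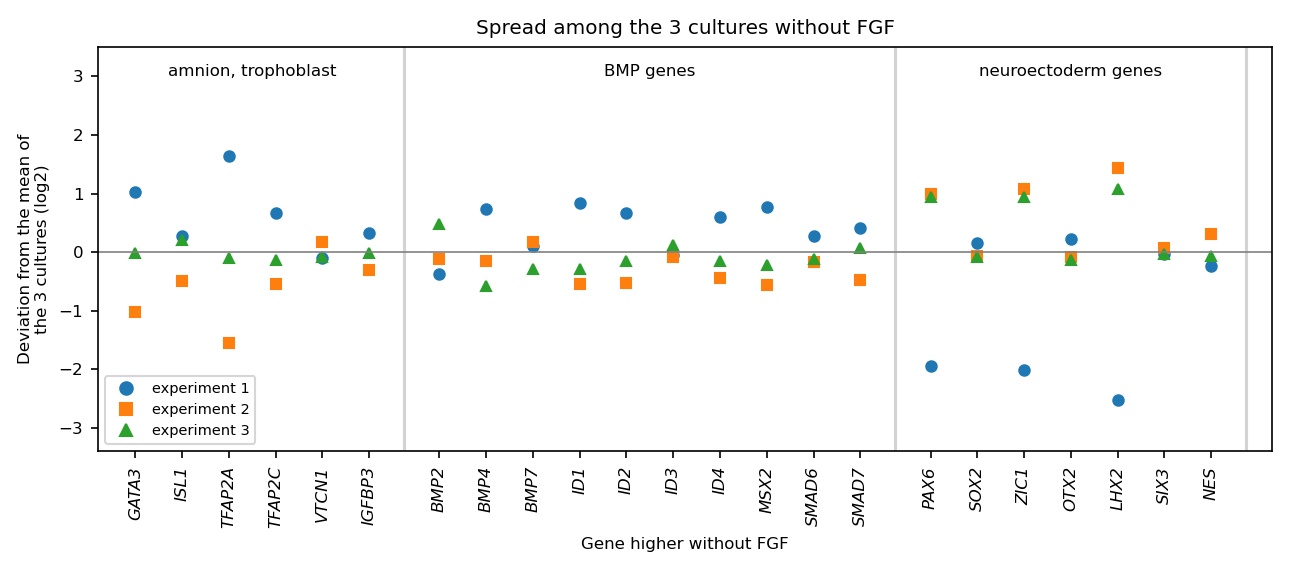
Deviation (log2) of each culture without FGF from the mean of the 3, for the genes of 3 lists that were higher without FGF than with bFGF. Points of experiment 1 are highest for 5 of 6 amnion and trophoblast genes and 7 of 10 BMP genes, and deviate by -1.94 for PAX6, -2.01 for ZIC1 and -2.52 for LHX2.

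Genes whose level followed that of the 10 genes over the 27 cultures are given by Pearson's r among 16475 other genes well above background on both arrays of at least 3 cultures. The cultures share lines, media and experiments, and the r is a description. For TFAP2C the closest were KLF5 (0.94), LIMCH1 (0.94) and BMP4 (0.92), and r was slightly higher without the differentiated culture (0.95, 0.95 and 0.92). For IGFBP3 they were NKAIN4 (0.95), CBFA2T3 (0.93) and FNDC5 (0.93; 0.95, 0.84 and 0.89 without it), and for GATA3 they were RGL1 (0.91), CDH18 (0.91) and GRP (0.89; 0.91, 0.88 and 0.85 without it).

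TFAP2A, ISL1 and GATA2 were above background on both arrays of only 3 of the 27 cultures, so that r runs mostly over background values. TFAP2A was followed most closely by ERP27 (0.92), CRX (0.92) and FEZF2 (0.91), with r of 0.88, 0.89 and 0.86 when differentiated H1 was left out, and VTCN1 by TGFBI (0.94), EYA2 (0.93) and CD59 (0.92), with r of 0.80, 0.72 and 0.78 then. ISL1 had PDZRN4 (0.91), KCNE4 (0.88) and HAND2 (0.87), which fell to 0.82, 0.78 and 0.73 without that culture. GATA2 had MSX2 (0.78), SMAD9 (0.76) and RARB (0.76), which fell to 0.66, 0.58 and 0.58. HAND1 had DCT (0.92), SPRR3 (0.91) and SST (0.90), but these fell to 0.26, 0.41 and 0.30 without differentiated H1, so that they rest on that culture. CDX2 and CGA were above background on both arrays of 1 culture only, differentiated H1, and were not compared.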

How the data were processed

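Total RNA of 27 cultures was labelled with Cy3 and measured by the authors on Agilent 8 x 60K arrays, 2 per culture. The deposited intensity of each spot is the processed signal of Feature Extraction 10.7.3.1 (per the labels and the file headers), background-subtracted, linear and not scaled between arrays; the deposited value table holds the same intensities. Background marks were set by the authors' software. Here outlier spots (266 to 623 per array) and 4259 control spots were left out, signals were floored at 1, set to log2, averaged per probe, and the 75th percentile over 42405 probes was subtracted. The percentile was 182 to 913 and 0 probes were saturated. The number of cultures limits the precision. Symbols came from RefSeq accessions (25715 probes). Duplicate arrays were averaged and counted as 1 culture.

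Groups were compared with limma 3.58.1 in R 4.3.3 (lmFit, eBayes, Benjamini-Hochberg over all probes, threshold 0.05), tested on simulated data before use. A list gene with more than 1 probe is represented by its brightest on average. Named were the 10 genes and, per list, up to 4 genes past the test without FGF against bFGF by size, with room left given to genes changed 2-fold or more in differentiated H1; like-pattern genes are the 3 with the highest r. Deviations from the arm means, over all probes, of cultures of the same experiment correlated with r of 0.19 to 0.32 between bFGF and no FGF and 0.23 to 0.26 between FGFC and no FGF, so that for these comparisons the experiment numbers, taken from the sample titles, pair the cultures; pairs with the pre-cultures (-0.16 to 0.52) and between bFGF and FGFC (0.077 to 0.18) were not all above 0.1. The genes and lists were chosen with earlier results of these data known. TDGF1 and XAGE2 matched no probe by symbol and were not analysed here. Alternatives were normexp (offset 50), a floor, quantile normalization, a filter on dim probes, the percentile over spots, either array alone, the mean over probes, the value table, the experiment or slide as a block, the 2 groups alone, each experiment or system left out, and other references for differentiated H1. Scripts used Python 3.11.15, numpy 2.4.6 and pandas 2.3.3, and figures matplotlib 3.10.9.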

Additional observations from a re-analysis of the deposited data

How the results depend on the processing

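GATA3, TFAP2C, VTCN1 and IGFBP3 kept their direction and their side of the threshold against bFGF, FGFC and the pre-cultures under every alternative run, and TFAP2A under every one but leaving out experiment 3 (adjusted p = 0.0824, 0.0947 and 0.0738, limma); the filter on dim probes left TFAP2A, ISL1, GATA2, CDX2, HAND1 and CGA untested. That filter kept a gene if it was measured throughout either of the groups compared. GATA3 and VTCN1 met this only through the cultures without FGF, where they are high. The same held for TFAP2C against FGFC and against the pre-cultures. In these cases the selection favours a rise, so the filter was no separate check on it. IGFBP3 was measured on every array of all these groups. The number of the 10 genes that rose against the pre-cultures was 4 with the filter, which tested 4, and 4 to 5 without 1 experiment, against 7. The sizes moved most with normexp, for GATA3 against bFGF from 5.41 to 2.27. With 1 experiment left out, 4 to 6 genes passed against bFGF and 4 to 5 against FGFC. The differences that changed sign were all of genes that had not passed: HAND1 against bFGF (-0.0157 on the second arrays, -0.23 to 0.95 without 1 experiment), CDX2 against FGFC (-0.14 on the second arrays, -0.11 to 0.95 without 1 experiment), CGA against FGFC (-0.0133 with normexp) and VTCN1 between FGFC and bFGF in long-term culture (-0.27 to 0.59 without 1 system, lowest without H1 in E8 Medium); the causes were not tested. All 10 genes were 2-fold or more higher in differentiated H1 under each alternative. With the experiment as a replicate block, 6, 5, 0 and 7 genes passed against bFGF, against FGFC, between FGFC and bFGF and against the pre-cultures, the same numbers as without it, and no call of a single gene changed; without the replicate block of the long-term systems 0 passed. Signals near background limit ISL1, GATA2, CDX2, HAND1 and CGA.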
